A study of Mus musculus with 4 samples.

Results

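The proliferins are secreted hormones encoded by the Prl2c genes of mouse, a branch of the prolactin family that arose by gene duplication. Their signal was examined in left ventricles of KDM5B-knockout (KO) and wild-type (WT) mice after myocardial infarction (MI). The members were Prl2c2, Prl2c3, Prl2c4 and Prl2c5, and every non-control array probe that carried one of these gene names was taken. The array held 5 such probes among 41174 non-control probes of 27376 gene names, 3 named Prl2c3 and 2 named Prl2c5, and no probe named Prl2c2 or Prl2c4. A search by older proliferin names, descriptions and transcript identifiers added 0 probes. The family was chosen with its KO against WT difference known, so that difference is described here without a test.

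Male WT and KDM5B-KO mice, 8 to 10 weeks old per the series text, had the left anterior descending artery of the heart tied off, and left ventricular RNA was collected on Day 7. KDM5B is a histone demethylase, and per the study's methods the KO mice carried a CRISPR/Cas9 deletion of the part of Kdm5b that encodes the catalytic JmjC domain, which shifts the reading frame. Per the study the KO mice were on a C57BL/6 background and the controls were WT littermates. Each group had 2 arrays, numbered 2 and 3 in the titles and called WT 2, WT 3, KO 2 and KO 3 below. Values of single arrays are given with number 2 before number 3. No uninjured heart was analysed here, so the signals show infarcted tissue in both genotypes.

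Proliferin is best known from the placenta, where trophoblast giant cells release it at the maternal border, and from cultured fibroblasts, which make it when serum or growth factors drive them to divide. It promotes the movement of endothelial cells and the growth of new vessels. Unlike prolactin, it acts mainly through the insulin-like growth factor 2 receptor, also called the cation-independent mannose 6-phosphate receptor. Its relative proliferin-related protein, the product of Prl7d1, inhibits vessel growth. The paralogs are nearly identical in sequence, so 1 probe may read several of them.

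The 5 probe sequences, as the deposited array files give them, are printed to show which stretches of the transcripts were read and how far the paralogs can be told apart. Capitals mark the bases at which the only closely matching pair differed.
Prl2c3 probe 1: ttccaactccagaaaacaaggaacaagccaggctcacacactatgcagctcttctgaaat
Prl2c3 probe 2: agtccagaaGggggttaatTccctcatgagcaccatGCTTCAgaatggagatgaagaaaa
Prl2c3 probe 3: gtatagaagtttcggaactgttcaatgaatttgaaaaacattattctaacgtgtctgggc
Prl2c5 probe 1: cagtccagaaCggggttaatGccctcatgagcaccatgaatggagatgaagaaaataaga
Prl2c5 probe 2: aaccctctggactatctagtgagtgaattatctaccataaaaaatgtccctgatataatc

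Prl2c3 probe 2 and Prl2c5 probe 1 read the same stretch of the 2 paralogs. They aligned over 54 bases, of which 52 were identical, with a 6-base run at position 37 that only the Prl2c3 probe had. The substitutions were G10C and T20G, counted from 1 at the 5′ end of Prl2c3 probe 2, with the Prl2c3 base first. No other pair of the 5 probes aligned over more than 27 bases. The files list a Prl2c2 transcript among the targets of 4 of the 5 probes and a Prl2c1 transcript for 2, while Prl2c5 probe 2 is also listed for Prl2c3. A further transcript, listed for every Prl2c3 probe and for Prl2c5 probe 2, had no symbol in the RefSeq gene table. The RefSeq gene table gives Prl2c4 as an older symbol of Prl2c3. The values below are therefore values of probes named for a gene, and how the signal divides among paralogs is uncertain.

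All 5 probes lie on chromosome 13 of build mm9. Prl2c3 probe 1 was placed at 12884423 to 12885595 on the minus strand, Prl2c3 probe 2 at 12883352 to 12884285 and Prl2c3 probe 3 at 12885635 to 12889129 on the same strand. Prl2c5 probe 1 was placed at 13282998 to 13283933 and Prl2c5 probe 2 at 13282901 to 13282960, both on the plus strand. The coordinates of 4 probes span more than the 60 bases of the probe itself, which places these 4 across a gap in the genome as an exon junction would be. Only Prl2c5 probe 2 was unbroken. No mm9 annotation was at hand, so the exon that each probe reads is not given.

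Signal was the processed intensity of each spot, and levels are log2 signals minus that of the 75th percentile on the same array, a signal of 876.3 and 976.1 in WT and 607.6 and 885.2 in KO. A probe counts as measured on an array where the scanner software marked it well above background, as for 68.2% to 72.0% of probes per array, and a probe measured on both arrays of at least 1 group was tested, which left 28304 probes. limma called 0 of them at an adjusted p under 0.05 with a fold over 2, against 410 (1.45%) at an unadjusted p under 0.05, and the methods' t-test with a fold over 2 gave 88 before and 0 after Benjamini-Hochberg adjustment. Both Kdm5b probes had their KO signals under their WT signals, with KO minus WT values of -0.996 and -1.19, and stayed well above background in KO, and their place relative to the deletion was not determined. All 8 cardiomyocyte markers were well above background on all 4 arrays. The label of male was not borne out on WT 2 and KO 2, where the brightest Xist probe had log2 signals of 14.13 and 13.24 against 1.92 and 2.01 on WT 3 and KO 3, and the brightest Ddx3y probe, of a Y-linked gene, showed the opposite pattern. Since each array number holds 1 array of each genotype, every member is given within each number too. Nothing in the labels says whether an array holds 1 animal or a pool. The WT and KO arrays took separate positions on 1 slide, so position and genotype cannot be told apart.

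Of the 5 proliferin probes, 4 were tested, and all 4 were lower on both KO arrays than on both WT arrays. Among all tested probes 10.9% showed that order, and because the members were chosen for this contrast, nothing is read from the comparison. The mean KO level lay 2.55-fold and 5.07-fold below the mean WT level for the 2 probes measured on all arrays, and at least 4.13-fold and 7.31-fold below it for the 2 that were not well above background on KO 2. These folds hold for the processed signal as scaled here, and normexp, described below, gave smaller differences. The mean was thus lower by over 2-fold for all 4 as scaled here, as for 2.35% of tested probes, and again nothing is read from that share. The fifth probe, Prl2c3 probe 3, was not well above background on any array. In whole tissue, fewer cells that make a transcript and less transcript per cell cannot be told apart.

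Prl2c5 encodes a proliferin formerly called mitogen-regulated protein and proliferin 4. Prl2c5 probe 1 had signals of 316.5 and 244.1 in WT and 25.9 and 73.0 in KO, all well above background. Both WT arrays were high, KO 2 was the lowest and KO 3 was intermediate, with no overlap between genotypes. The level was -1.73 ± 0.37 (SD, n = 2) for WT and -4.08 ± 0.67 (SD, n = 2) for KO, a difference of -2.34 or 5.07-fold. KO 2 was 8.49-fold below WT 2, and KO 3 was 3.03-fold below WT 3. The gap between genotypes was larger than the spread within either group.

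Prl2c5 probe 2 reads another stretch of the transcript and gave nearly the same picture. Its signals were 122.2 and 89.6 in WT and 11.1 and 28.2 in KO, and only KO 2 was not well above background. Both WT arrays were again high, and no KO array reached them. The level was -3.14 ± 0.43 (SD, n = 2) for WT. With KO 2 set to the floor, the dimmest signal that was well above background on that array, the difference between genotypes was -2.05, so WT was at least 4.13-fold higher, with 1 of 2 KO arrays measured. Within number 2 WT was at least 5.94-fold higher, and within number 3, where both arrays measured it, 2.88-fold. As read, with the dim KO 2 signal, the difference was -2.23.

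Prl2c3 encodes the proliferin formerly called proliferin 2. Prl2c3 probe 1 had signals of 145.7 and 126.8 in WT and 58.9 and 30.3 in KO, all well above background. Here KO 3 was the lowest array, and KO 2 was nearer to the WT arrays. The level was -2.77 ± 0.25 (SD, n = 2) for WT and -4.12 ± 1.06 (SD, n = 2) for KO, a difference of -1.35 or 2.55-fold. Within number 2 the difference was -0.78, under a fold of 2, and within number 3 it was -1.93. The gap between the lowest WT and the highest KO level was 0.42, smaller than the SD in KO, and without KO 3 the difference was -0.60.

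Prl2c3 probe 2, the close match of Prl2c5 probe 1, had signals of 244.2 and 147.8 in WT and 3.49 and 29.8 in KO. KO 2 was not well above background, so only an upper bound is known there. The level was -2.28 ± 0.62 (SD, n = 2) for WT. With KO 2 at the floor the difference was -2.87, so WT was at least 7.31-fold higher, with 1 of 2 KO arrays measured. As read, with a KO 2 signal that was not measured, the difference was -3.89. Within number 3, where both arrays measured it, KO was lower by a log2 difference of -2.17.

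Prl2c3 probe 3 had signals of 14.4 and 3.41 in WT and 8.78 and 3.38 in KO. No array was well above background, the genotypes overlapped, and no fold is given. It is listed for the same 3 transcripts as Prl2c3 probe 2, so the probes named Prl2c3 did not all return signal from this tissue.

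**Figure D1:**
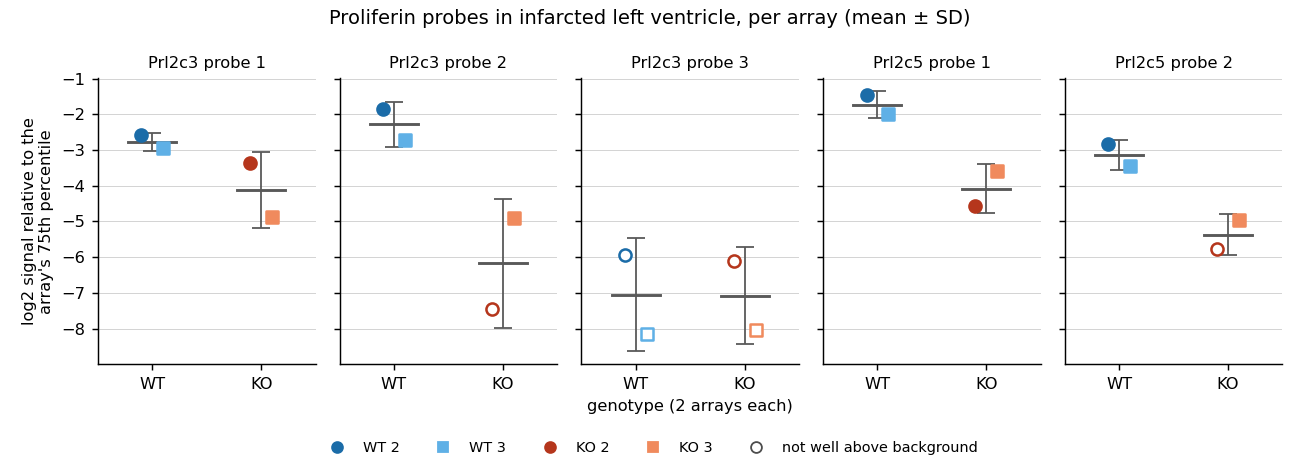
Level of each proliferin probe on each of the 4 arrays (vertical axis, log2 signal minus the 75th percentile of that array), with circles for arrays of number 2, squares for arrays of number 3, open symbols where the probe was not well above background, and bars for the mean and SD of 2 arrays, dim arrays included as read. The KO symbols lie below the WT symbols for 4 probes, while Prl2c3 probe 3 is open on all 4 arrays.

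The probes differed among themselves in which KO array was lower. KO 3 exceeded KO 2 by 0.95 for Prl2c5 probe 1, and with KO 2 at the floor by at least 0.44 for Prl2c5 probe 2 and at least 0.52 for Prl2c3 probe 2. For Prl2c3 probe 1 the order was turned, with KO 3 minus KO 2 at -1.504. WT 2 exceeded WT 3 for all 4 tested probes. Of the 4 tested probes, 3 were lower in KO by more than 2-fold within both array numbers, against 0.428% of all tested probes. Prl2c3 probe 1 was not among them. For Prl2c3 probe 2 and Prl2c5 probe 2 KO 2 was not well above background, and both also passed with KO 2 at the floor. Over all tested probes, the 5th and 95th percentiles of KO minus WT were -1.401 and 1.08 within number 2, and -0.65 and 0.65 within number 3. The central spread of differences was thus wider in number 2 than in number 3. Within number 3 all 4 proliferin probes lay below the 5th percentile, and within number 2 all but Prl2c3 probe 1 did. The members were chosen for this contrast, so nothing is read from setting them beside all tested probes.

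**Figure D2:**
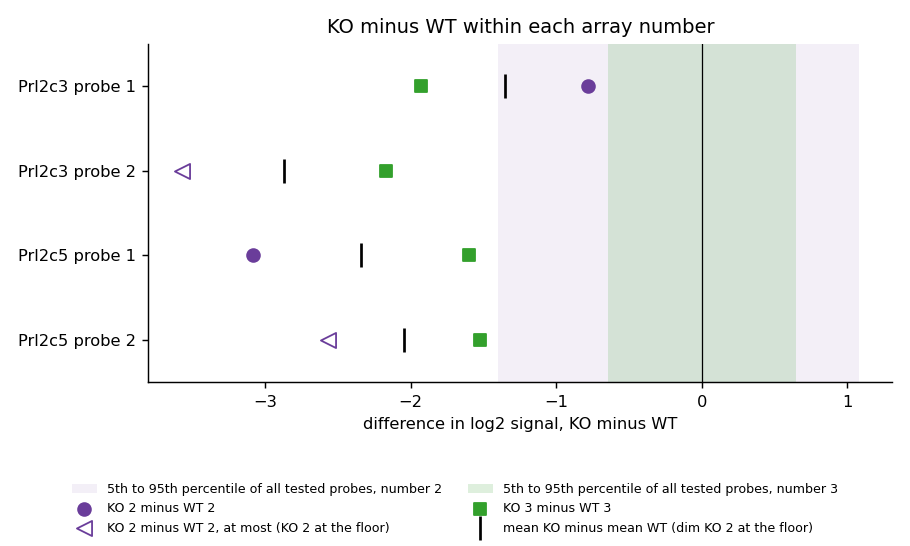
KO minus WT of the 4 tested proliferin probes in log2 signal (horizontal axis), with circles for number 2, squares for number 3, open triangles for number 2 where KO 2 was set to the floor and the difference is at most the value drawn, a vertical tick for the difference of means with such a KO 2 at the floor, and shaded bands for the range from the 5th to the 95th percentile of all tested probes within each number. Within number 3 the probes lie between -1.53 and -2.17, and Prl2c3 probe 1 at -0.78 is the only probe above -2.57 within number 2.

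With the dim arrays of every tested probe at the floor, 4 of 28304 probes had a lower KO minus WT value than Prl2c3 probe 2, 14 a lower one than Prl2c5 probe 1, 34 a lower one than Prl2c5 probe 2 and 188 a lower one than Prl2c3 probe 1. These ranks describe the values that led to the choice of the family. The median difference over all tested probes was 0.02, and the median SD between the arrays of a group was 0.16 in WT and 0.39 in KO. All 4 proliferin probes had an SD above the median in WT, and so did the 2 measured on both KO arrays in KO.

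The promoters of Prl2c3 and Prl2c5 are shown because probes named for each gene were lower in KO. How that signal divides among paralogs is uncertain, so it does not show that both genes changed. RefSeq sequences of build GRCm38.p6 were used, with the 250 bases before the transcription start at chr13:12800080-12800329 on the minus strand for Prl2c3 and chr13:13182466-13182715 on the plus strand for Prl2c5. No Prl2c2 promoter was at hand. Capitals mark the substitutions between the Prl2c3 and Prl2c5 promoters, while 1 base of each sequence had no partner in the alignment and is not marked.
Prl2c3 promoter: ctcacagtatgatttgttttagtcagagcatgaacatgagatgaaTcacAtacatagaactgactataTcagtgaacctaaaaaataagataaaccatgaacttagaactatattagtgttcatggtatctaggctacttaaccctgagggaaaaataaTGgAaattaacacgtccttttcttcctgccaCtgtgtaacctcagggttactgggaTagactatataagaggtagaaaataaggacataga
Prl2c5 promoter: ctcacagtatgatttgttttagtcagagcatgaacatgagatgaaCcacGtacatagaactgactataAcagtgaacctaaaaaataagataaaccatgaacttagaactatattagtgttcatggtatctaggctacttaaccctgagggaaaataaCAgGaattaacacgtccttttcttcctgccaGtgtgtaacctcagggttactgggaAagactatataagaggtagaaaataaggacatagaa

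The promoters aligned over 249 bases, of which 241 were identical, or 96.8%. The 8 substitutions, counted from the 5′ end of the printed Prl2c3 sequence with its base first, were T46C, A50G, T69A, T160C, G161A, A163G, C191G and T216A. Both strands of the window, which runs on to 50 bases after the start, were searched for 4 motifs. The pattern TGANTCA stood for the site of AP-1, made of Fos and Jun proteins, with any base allowed at its centre. It occurred 1 time in Prl2c3, as TGAATCA at positions 42 to 48, and 0 times in Prl2c5, where T46C changes it. Whether AP-1 binds the form with A at the centre was not tested. Of 32851 promoters, 7.81% held the pattern. The E-box CACGTG, held by 7.15% of promoters, TATAAA, held by 13.6%, and the glucocorticoid receptor motif AGAACA, held by 19.0%, had 0 matches in either promoter. Only the exact letters given were searched, so the run tatataag, present in both promoters, did not count as TATAAA. The lack of a match therefore does not show that a site of that kind is absent. A match is only a match of letters, and no binding was measured here.

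Most other genes of the prolactin and growth hormone family gave no signal above background. Of 24 listed relatives, 22 had a probe, and for 18 of these no probe was well above background on any array. The list has 2 tested genes, both of them placental lactogens. Prl3d1, placental lactogen I, had signals of 224.9 and 171.3 in WT and 261.1 and 164.7 in KO, with KO minus WT at 0.41. Prl3b1, placental lactogen II, had signals of 108.8, 100.6, 81.5 and 109.7 in the same order, with a difference of 0.19. The genotypes overlapped for both, limma called neither (adjusted p = 0.9999), and the list's median difference was 0.30 against 0.04 over 15062 tested genes.

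Prl7d1, which encodes the antiangiogenic proliferin-related protein, was well above background on WT 2 only and was not tested. Its signals were 38.9 and 17.7 in WT and 3.15 and 3.74 in KO. With 1 of 2 WT arrays and no KO array measured, no fold is given. Prl, the pituitary hormone prolactin, was well above background on KO 3 only, with signals of 9.09, 15.1, 13.99 and 25.0 in the order WT 2, WT 3, KO 2 and KO 3. No fold is given for it either.

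**Figure D3:**
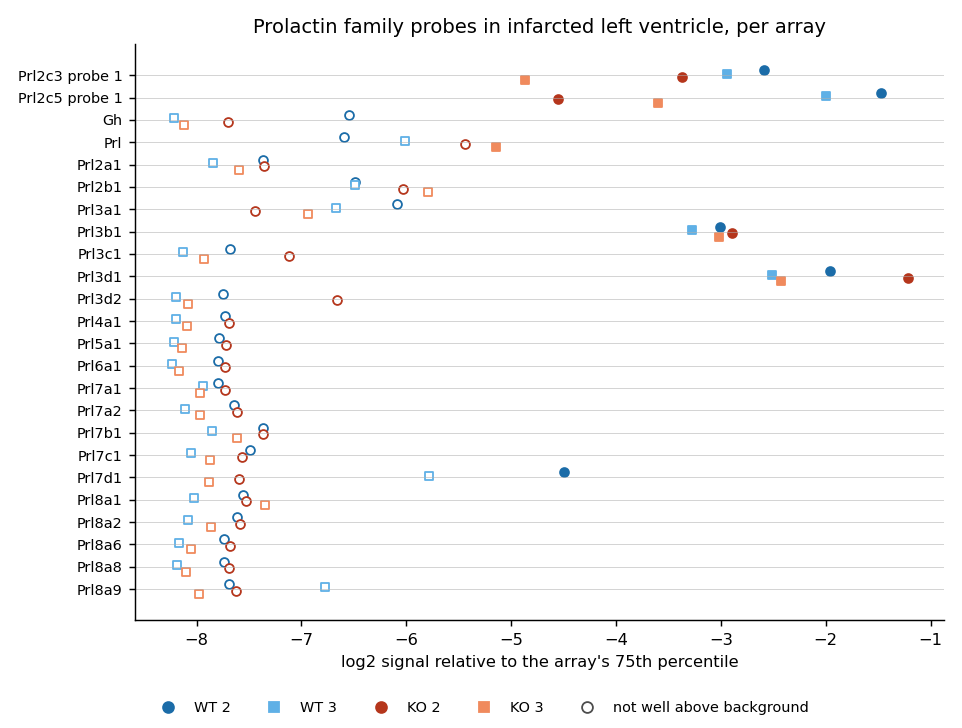
Prolactin family probes, 1 row per gene with 2 proliferin probes on top, as log2 signal minus the 75th percentile of that array (horizontal axis) on each of the 4 arrays, with open symbols where the probe was not well above background. Most relatives are open on all 4 arrays, Prl3b1 and Prl3d1 are filled on all 4, and levels should be compared along a row and not between rows, since probes differ in brightness.

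The 4 listed receptors were all measured, and limma called 0 of 4 (0 at an unadjusted p under 0.05, against 1.43% of genes). Igf2r, the receptor that binds proliferin, had signals of 12287 and 11608 in WT and 7351 and 11238 in KO, which after scaling gave overlapping genotypes and a difference of -0.06. Prlr, the prolactin receptor, had signals of 165.5, 72.8, 154.7 and 89.9 in the same order, so that the number 2 arrays were the brighter ones in both genotypes. Its difference was 0.44, and its other 2 probes were well above background only on WT 2 and KO 2. Ghr, the growth hormone receptor, differed by 0.17 at its brightest probe. M6pr, another mannose 6-phosphate receptor, was listed with them and differed by 0.05. The median difference of the 4 receptors was 0.11.

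Downstream of the prolactin and growth hormone receptors, all 13 listed signalling genes were tested and 0 were called, with 0 at an unadjusted p under 0.05. The genotypes did not overlap, with KO below WT, for 2 of them, Jak2 at -0.49 and Socs1 at -0.89, and with KO above WT for another 2, Stat3 at 0.33 and Socs3 at 0.28. Over all tested genes 8.9% lay below in that way and 13.3% above. Jak2 is the kinase bound to these receptors, Stat3 a transcription factor activated by such kinases, and Socs1 and Socs3 feedback inhibitors. The median difference of the list was 0.01.

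Transcription factors with known action on a proliferin promoter were measured in full, 9 of 9, and 0 were called or reached an unadjusted p under 0.05. Fos, a subunit of AP-1, had signals of 936.2 and 647.2 in WT and 1176 and 984.1 in KO, with KO minus WT at 0.80. Its KO values exceeded both WT values, as did those of Fosb at 0.25, and no member showed the opposite order, against 13.3% of genes with KO above and 8.9% with KO below. Jun, the partner of Fos, differed by 0.21 and Fosl1 by -0.58, and Nr3c1, the glucocorticoid receptor, by -0.08, each with overlapping genotypes. The median difference was 0.08.

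Of 15 growth factors and receptors linked to proliferin induction in cultured fibroblasts, 14 were tested, 0 were called and 0 reached an unadjusted p under 0.05. KO was below WT without overlap for Fgfr1 at -0.53, Hbegf at -0.13 and Pdgfra at -0.78, and above it for Pdgfb at 0.38 and Tgfa at 1.08. Over all tested genes the shares were 8.9% and 13.3%. Tgfa, a ligand of the epidermal growth factor receptor, was measured above background in KO and on neither WT array, with signals of 16.6 and 13.3 in WT and 30.8 and 20.3 in KO, so that KO was at least 1.75-fold higher (limma adjusted p = 0.9999). Fgf2, basic fibroblast growth factor, differed by -0.01, a sign that turned with quantile normalization, a median shift, the authors' values and normexp, and Igf2, another ligand of the Igf2r receptor, differed by -0.24. The median difference was -0.08.

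Genes around the proliferin cluster showed smaller differences of means than the 4 tested proliferin probes. Within 500000 bases on either side of the cluster, counted in mm9, lay 19 other probes, of which 15 were tested. Both KO arrays were below both WT arrays for 1 of them, an Edaradd probe at -0.75, and above for 4, against 10.9% and 13.1% of all tested probes. Their differences of means ran from -0.75 to 0.55 with a median of -0.06, and 0 exceeded 2-fold. Within number 2 they ran from -1.37 for that Edaradd probe to 0.95 for AK044196. There the Edaradd probe, AK039782 at -1.19 and an Ero1lb probe at -1.15 differed more than Prl2c3 probe 1 at -0.78. Within number 3 the range was -0.23 to 0.80.

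Likeness to the brightest member, Prl2c5 probe 1, was measured as the root mean square difference between profiles over the 4 arrays, each centred on its own mean. Prl2c3 probe 1, measured on all 4 arrays, was at 1.002, with 1106 of 15060 other genes closer, against a median of 1.27 over all genes. For the 2 probes that were not well above background on KO 2, the value depended on that array. Prl2c5 probe 2 was at 0.083 as read and at 0.235 with dim arrays of every probe at the floor, with 1 gene closer. Prl2c3 probe 2 was at 0.964 as read and at 0.330 with dim arrays at the floor, with 2 genes closer.

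The 5 genes nearest to that profile were Hp at 0.128, Clec9a at 0.144, Cxcl5 at 0.303, Abi3bp at 0.332 and Hepacam2 at 0.363. Hp, which encodes the plasma protein haptoglobin, had levels of 4.13 and 3.37 in WT and 1.06 and 2.12 in KO. Cxcl5, a neutrophil-attracting chemokine, had levels of 1.31, 0.26, -2.15 and -1.67 in the same order. Clec9a, a lectin of cross-presenting dendritic cells, and Hepacam2 were well above background on the WT arrays only, at least 1.77-fold and 1.64-fold higher in WT. With dim arrays at the floor, Serpinb5 and Ccl5 took the places of these 2 genes among the nearest 5. Since these genes were picked by their profile, their differences are not tested.

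Markers of several cell types moved with the number 2 arrays. KO 2 minus WT 2 had a median of -2.35 over 4 neutrophil markers, -2.66 over 5 mesothelial markers, -1.19 over 6 macrophage markers and -0.86 over 10 fibroblast and myofibroblast markers, and of 0.98 over 8 cardiomyocyte markers. Within number 3 the same medians were 0.12, 0.76, 0.21, 0.12 and -0.70. The signs of these medians were opposite in the pairs of arrays for each of the 5 lists, but single markers did not all follow. Of the fibroblast list, Pdgfra differed by -0.90 and -0.66 within numbers 2 and 3, and Tcf21 by -0.82 and -0.79. Lum differed by -1.09 and -0.29, and Dcn by -0.33 and -0.07. Mrc1 and S100a9 were also lower in KO within both numbers, and Wt1 was higher. The other markers of these lists changed sign. All markers of these lists were well above background on all 4 arrays, and none was at 0. Summed signals, given with number 2 first, were not scaled between arrays. The summed neutrophil signal was 22976 and 32248 in WT against 2963 and 29739 in KO. The summed fibroblast signal was 1135276 and 1119702 in WT against 493847 and 1160443 in KO. The summed macrophage signal was 48992 and 92355 in WT against 15077 and 100226 in KO. The 75th percentile signal was 607.6 on KO 2 and 876.3 on WT 2, so these sums put KO 2 lower than scaled levels would.

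The proliferin probes kept 1 sign in both pairs of arrays, which was fixed by both KO arrays lying below both WT arrays. Within number 3 they differed by -1.93, -2.17, -1.60 and -1.53 in the order of Prl2c3 probe 1, Prl2c3 probe 2, Prl2c5 probe 1 and Prl2c5 probe 2. The medians of the 8 marker lists lay between -0.70 and 0.76 there, and the 50 single markers ran from -1.63 for Myh4 and -1.49 for Myh6 to 1.29 for Acta2, so single muscle markers differed about as much as the Prl2c5 probes. Within number 2, beside the low neutrophil and mesothelial medians, Prl2c3 probe 1 differed by -0.78 and Prl2c5 probe 1 by -3.09, and with KO 2 at the floor Prl2c3 probe 2 by at most -3.57 and Prl2c5 probe 2 by at most -2.57. The remaining lists had medians of 0.55 and -0.14 for endothelial, 0.33 and -0.01 for mast cell and 1.29 and -0.31 for skeletal muscle markers within numbers 2 and 3. The part of tissue makeup in the proliferin difference was not tested.

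**Figure D4:**
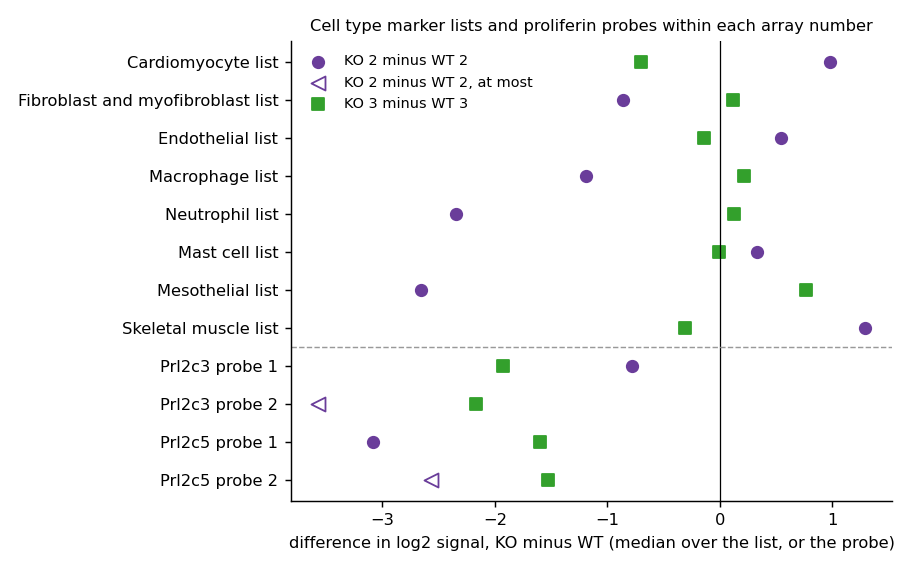
KO minus WT in log2 signal (horizontal axis) within number 2 (circles) and within number 3 (squares), as the median of each of 8 cell type marker lists above the dashed line and as the single value of each of 4 proliferin probes under it, with open triangles where KO 2 was set to the floor and the difference is at most the value drawn. The proliferin probes are left of 0 for both numbers, which is fixed by both KO arrays lying below both WT arrays. The medians of the 8 lists take opposite signs in the 2 numbers, though not every single marker does.

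The size of the proliferin difference depended on how dim signal was treated. With normexp background correction, which adds an offset of 50 to each spot, the differences were -0.47 for Prl2c3 probe 1, -1.13 for Prl2c3 probe 2, -1.19 for Prl2c5 probe 1 and -0.41 for Prl2c5 probe 2. Under quantile normalization, a shift by the median and the authors' own values, they stayed near those given above. The folds given as at least a value hold for processed signal with dim arrays at the floor, and they are not bounds under normexp.

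**Figure D5:**
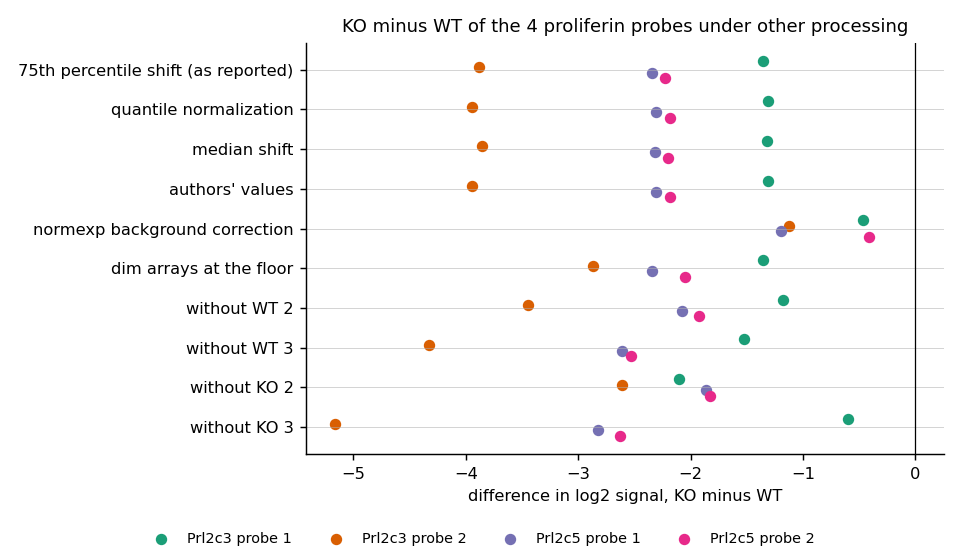
KO minus WT of the 4 tested proliferin probes in log2 signal (horizontal axis) under each processing alternative and with each array left out (vertical axis), where Prl2c3 probe 2 and Prl2c5 probe 2 use a KO 2 signal that was not well above background, except with dim arrays at the floor. Every point lies left of 0, normexp gives the smallest difference for each of the 4 probes, and the settings without KO 2 or KO 3 show how far 1 array moves each probe.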

How the data were processed

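Total RNA from left ventricle was hybridised in 1 colour (Cy3) to 4 Agilent Whole Mouse Genome arrays. The authors scanned them, and the deposited intensity values came from Agilent Feature Extraction (10.7.3.1 per the file headers), background-subtracted and detrended, with grid annotation on build mm9. A further table deposited by the authors holds log2 values from GeneSpring, with the normalization not stated. After quantile normalization of the log2 scanner values, 99.995% to 100% of probes per array matched it within 0.1, and the median of every array in it was 6.78. It is thus on the log2 scale, runs in the direction of the signal and is not gene-centred.

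Of 43379 non-control spots per array, 92 to 116 flagged spots were left out, 0 were saturated, and spots of a probe were averaged. Log2 processed signal was shifted by the 75th percentile of each array. Of 41174 probes, 12868 were too dim and 2 lacked a value. Differences between KO and WT were fitted with limma 3.58.1 (lmFit and eBayes, R 4.3.3) and adjusted by Benjamini-Hochberg over 28304 probes. The procedure was also run on simulated data with equal, independent noise in both groups, which does not show its power on these 4 arrays. A gene was represented by its brightest tested probe. Sequences were aligned with Biopython 1.88. Gene names came from the files, with RefSeq symbols for listed transcripts. Precision is limited by the number of arrays, and p-values measure only the spread between these 4.

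Groups and array numbers came from the titles and genotype labels. The members and lists were chosen with earlier results of these data known. Named were all member probes, 10 list genes chosen with the lists, other list genes over 2-fold with genotypes that did not overlap, and the 5 genes most like Prl2c5 probe 1. Prl, Prl3b1, Prl3d1, M6pr, single cell type markers and the list genes with genotypes that did not overlap were named after their values were seen. Alternatives were normexp, quantile and median scaling, the authors' values, other filters, an array number block, each array left out, the methods' t-test, the mean of a gene's probes, and, added after the data were seen, dim arrays of the member probes or of all tested probes at the floor. With 1 slide and 1 scan day, neither could serve as a block.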

Additional observations from a re-analysis of the deposited data

How the results depend on the processing

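The 4 proliferin probes with signal kept a negative difference in every alternative run on them, but their lowest and highest values differed widely, and the direction with an array left out was fixed by the order of the arrays. Normexp moved them to -0.47 for Prl2c3 probe 1, -1.13 for Prl2c3 probe 2, -1.19 for Prl2c5 probe 1 and -0.41 for Prl2c5 probe 2, and the median of all tested probes to 0.13. Leaving out 1 array gave -2.10 to -0.60 for Prl2c3 probe 1, with -0.60 without KO 3 and -2.10 without KO 2. It gave -5.16 to -2.61 for Prl2c3 probe 2, -2.82 to -1.87 for Prl2c5 probe 1 and -2.63 to -1.83 for Prl2c5 probe 2. There limma takes the lone array of a group to vary like the other group. Prl2c3 probe 3, not well above background, ran from -1.15 to 1.09. With the array number as a replicate block limma called 0 probes, as without it, and 602 against 410 had an unadjusted p under 0.05. Deviations of same-numbered arrays correlated at 0.57, and same-numbered arrays also share their Xist and Ddx3y pattern, but with 2 pairs and no label that ties them they were not treated as paired.

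The count at an unadjusted p under 0.05 was 1158 with normexp, 723 with no filter and 125 to 7278 with 1 array left out, the highest without KO 3. The methods' t-test gave 88 probes unadjusted. Probes lower by over 2-fold within both numbers counted 121, or 25 with normexp, 255 with no filter and 47 where a probe had to exceed background on all 4 arrays. Probes with both KO arrays below both WT arrays counted 3080, or 1595 with normexp. Fgf2 turned to 0.20 with normexp, 0.029 with quantile normalization, 0.022 with a median shift and 0.028 with the authors' values. With 1 array left out, Fgf2 ran from -0.41 to 0.40, Prlr from -0.23 to 1.11, Igf2r from -0.18 to 0.0595, Ghr from -0.25 to 0.59, Jun from -0.32 to 0.75, Fosl1 from -1.28 to 0.13, Nr3c1 from -0.30 to 0.15 and Igf2 from -0.74 to 0.27, so none of these 8 has a settled direction. The cause of these moves was not tested. The number of called genes stayed at 0 for each list.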
